A study of Mus musculus with 6 samples.

Results

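The genes described here are 42 regulators and effectors of the cell division cycle, taken by name from a deposited table of 24182 mouse genes. They fall into 13 genes of G1 control, 13 of DNA replication and 16 of G2 and mitosis. RNA was measured by bulk sequencing in mouse Th17 cells, the CD4+ helper T cells defined by interleukin 17. Per the labels, Sirt2, which encodes a NAD-dependent protein deacetylase, was disrupted with CRISPR/Cas9 in the Sirt2 KO group (3 libraries), and the Sirt2 WT group (3 libraries) held the controls. The cells of all 6 libraries received antibodies against CD3 at 0.5 μg/mL and against CD28 at 1 μg/mL for 72 hours, which engages the antigen receptor and its costimulator, although the treatment label of every library reads untreated. The labels give no animal age, guide or clone, and do not say if the replicates of a group were cultured, or taken from animals, separately. The spread behind each p-value is thus that among these libraries and may be technical. In bulk RNA, fewer dividing cells and less RNA of these genes per cell cannot be told apart.

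A resting T cell enters the cycle when antigen receptor and costimulator signals raise MYC and the D-type cyclins, which activate CDK4 and CDK6 and release E2F factors from retinoblastoma family repressors. E2F then drives cyclin E and the replication genes: CDC6 and CDT1 load the MCM helicase on origins, PCNA clamps the polymerases, and ribonucleotide reductase and thymidylate synthase supply nucleotides. Genes of G2 and mitosis, such as CDK1 with its A and B cyclins, the Aurora and Polo kinases, kinesins and the spindle checkpoint, are raised later, by MuvB complexes with B-MYB and FOXM1. The CDK inhibitors p27 (Cdkn1b) and p18 (Cdkn2c) hold cells in G1.

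Summed gene FPKM (fragments per kilobase, relative to each library's total) ranged from 303772 to 321734 per library, and read depth is unknown. The targeted gene was lower in every KO library: Sirt2 had 11.2, 13.5 and 10.9 FPKM there (replicates 1 to 3) against 20.7, 19.9 and 21.9 FPKM in WT. KO replicate 3 stood apart from the other KO libraries. Across genes, its log2(FPKM + 1) correlated at 0.981 and 0.979 with KO replicates 1 and 2 but at 0.990 with each WT library, while KO replicates 1 and 2 correlated at 0.992. The comparisons below are therefore given with and without it. In the KO libraries the T cell genes Trac and Cd4 were at 197 to 199 and 89.4 to 102 FPKM and the Th17 cytokine gene Il17f at 202 to 350 FPKM, while the 12 erythroid and fibroblast markers were all under 1 FPKM in every library. Summed NK and cytotoxic markers (3 of 7 under 1 FPKM everywhere) gave 19.5 to 25.6 FPKM in KO against 5.07 to 5.89 FPKM in WT, with Gzmb and Gzmc called higher (limma adjusted p = 0.0068 and 0.0375). Most of the KO sum was Gzmb (KO 11.6 to 19.2 FPKM, WT 2.66 to 2.97 FPKM). All KO values of Nkg7 and Gzma also lay above all WT values, while Klrd1, Prf1 and Eomes overlapped between the groups. Summed myeloid markers (9 of 14 under 1 FPKM everywhere) were at 39.4 to 41.5 against 30.2 to 31.9 FPKM. Most of that sum was Ctss (KO 26.3 to 31.4 FPKM, WT 26.6 to 28.4 FPKM). For Lyz2, a lysozyme of macrophages and neutrophils, the KO libraries gave 8.31, 9.44 and 4.24 FPKM against WT values of 1.38, 1.03 and 0.782 FPKM (limma adjusted p = 0.0503, and 0.0016 without KO replicate 3), and Cd14, too low to be tested, was at 0.881 to 1.49 against 0.0245 to 0.121 FPKM. Summed B cell markers (7 of 9 under 1 FPKM everywhere), mostly Ighm, were at 22.9 to 27.8 against 19.1 to 19.8 FPKM. Whether cells of these types were present, and their part in the results, was not tested.

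Of the 7 genes that passed the test below when KO replicate 3 was left out, the promoters of 5 are shown: Cdkn1b of G1 control, Tyms of replication, and Mki67, Top2a and Kif11 of mitosis. Each is the 200 bases before the RefSeq start, 5′ to 3′ on the gene's own strand (RefSeq, build GRCm38.p6), with motif letters in capitals. The motifs were the E2F site (TTTCGCGC or TTTGGCGC), the CHR element of late cell cycle genes (TTTGAA), the CCAAT box bound by NF-Y (CCAAT) and the E-box bound by MYC with MAX (CACGTG), each searched on both strands, so that TTCAAA and ATTGG in capitals mark CHR and CCAAT matches on the other strand. The 3 mitotic promoters held both CHR and CCAAT letters, that of Cdkn1b held CCAAT letters only and that of Tyms an E-box only. The window of Ccne1 held none of the 4 motifs and is not shown, because the RefSeq start lies inside the gene as the annotation gives it.
Cdkn1b, chr6:134920201-134920400, plus strand: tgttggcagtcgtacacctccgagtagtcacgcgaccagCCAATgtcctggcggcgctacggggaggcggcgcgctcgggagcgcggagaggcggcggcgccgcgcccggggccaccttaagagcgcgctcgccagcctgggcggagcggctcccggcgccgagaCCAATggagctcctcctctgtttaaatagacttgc
Tyms, chr5:30073626-30073825, minus strand: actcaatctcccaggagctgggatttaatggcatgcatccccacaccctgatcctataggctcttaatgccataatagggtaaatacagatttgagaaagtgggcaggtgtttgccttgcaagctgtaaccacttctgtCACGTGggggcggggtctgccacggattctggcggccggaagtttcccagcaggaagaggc
Mki67, chr7:135716380-135716579, minus strand: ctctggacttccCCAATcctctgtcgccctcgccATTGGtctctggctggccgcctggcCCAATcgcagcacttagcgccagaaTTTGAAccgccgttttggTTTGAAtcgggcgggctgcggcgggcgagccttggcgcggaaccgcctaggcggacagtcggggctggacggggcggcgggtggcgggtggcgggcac
Top2a, chr11:99024190-99024389, minus strand: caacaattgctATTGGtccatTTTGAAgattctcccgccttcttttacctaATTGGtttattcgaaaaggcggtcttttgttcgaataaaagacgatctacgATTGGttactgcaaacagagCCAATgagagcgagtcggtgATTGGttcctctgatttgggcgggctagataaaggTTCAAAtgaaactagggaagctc
Kif11, chr19:37376182-37376381, plus strand: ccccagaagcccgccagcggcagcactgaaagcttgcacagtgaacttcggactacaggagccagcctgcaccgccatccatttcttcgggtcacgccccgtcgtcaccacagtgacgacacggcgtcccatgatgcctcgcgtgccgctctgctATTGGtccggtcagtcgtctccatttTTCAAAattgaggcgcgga

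RefSeq windows of 250 bases before to 50 after the start were found for 33 of the 42 genes. Of their 37 windows, 25 had the first 20 bases after the start in a GENCODE transcript of the gene. The windows of Tyms, Mki67 and Kif11, shown above, did not. Windows of Myc, Ccnd1, Ccnd2, Ccne2, Ccna2, Mcm4, Gmnn, Aurkb and Foxm1 were not used here. The CHR element was in 9 of 13 G2 and mitosis genes (69.2%), all 9 of which also held a CCAAT box, and in 1 of 11 replication genes and 1 of 9 G1 genes. Among all 27025 genes with a window, 20.2% held a CHR element and 7.97% held both motifs. The E2F site was in 5 of 11 replication genes (45.5%), against 1 of 9 G1 genes, 1 of 13 mitotic genes and 0.929% of all genes. The mitotic gene with an E2F site was Cdk1. The E-box was in 3 of 9 G1 genes, Cdk4, Cdk6 and Cdkn2c, in Tyms alone among replication genes, and in 8.09% of all genes. A match describes these letters and is not evidence that a factor was bound in these cells.

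These genes were expressed far above the typical gene. Their median level over the 6 libraries was 43.5 FPKM, against 8.01 FPKM for all 10873 genes tested (those that reached 1 FPKM in 3 or more libraries). The sources do not give the gene length behind each FPKM value, and the gene value was 0.219 to 1.0 times the sum of the gene's transcript values (median 0.738), so the order of levels is that of the authors' scaling. On this per-kilobase scale the replication genes were highest, with a median of 95.8 FPKM, then the G2 and mitosis genes at 44.0 FPKM and the G1 genes at 19.0 FPKM. Pcna, the sliding clamp of the DNA polymerases, had the highest level, 260 ± 26.1 FPKM in KO and 259 ± 11.3 FPKM in WT (SD, n = 3 each). The lowest of the tested genes was Cdkn2c, at 2.56 to 3.25 FPKM. Ccnd1, the D cyclin of many non-lymphoid cells, was at 0.03 to 0.18 FPKM in the 6 libraries and did not enter the test, while the lymphoid D cyclins Ccnd2 and Ccnd3 were at 50.7 to 69.3 and 24.2 to 28.6 FPKM.

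With all 6 libraries, no cell cycle gene passed the test of Sirt2 KO against Sirt2 WT. By limma on log2(FPKM + 1) with Benjamini-Hochberg adjustment, 0 of 41 tested genes passed an adjusted p of 0.05, where 12 of 10873 genes did in the whole table (0.11%). At an unadjusted p under 0.05 there was 1 gene, Cdkn1b, lower in KO, where 5.61% of all genes reached that level and 3.07% were lower. The smallest adjusted p was 0.738. The median log2 difference was -0.03 over the 41 genes, with 12 above 0 and 29 below, and -0.03 over all genes, with 4491 above and 6382 below. By group the medians were -0.02 for G1 control, -0.01 for replication and -0.04 for G2 and mitosis. The 95% interval of the difference lay within 0.5 of 0 on the log2 scale for 39 of the 41 genes, the exceptions being Mki67 and Cenpe, and for 82.0% of all genes tested. KO and WT values did not overlap for 3 of the 41 genes, Cdkn1b, Cdk2 and Foxm1, all lower in KO. Over all genes tested 6.88% were lower and 4.28% were higher in this sense, so the share among the cell cycle genes was near the background.

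**Figure D1:**
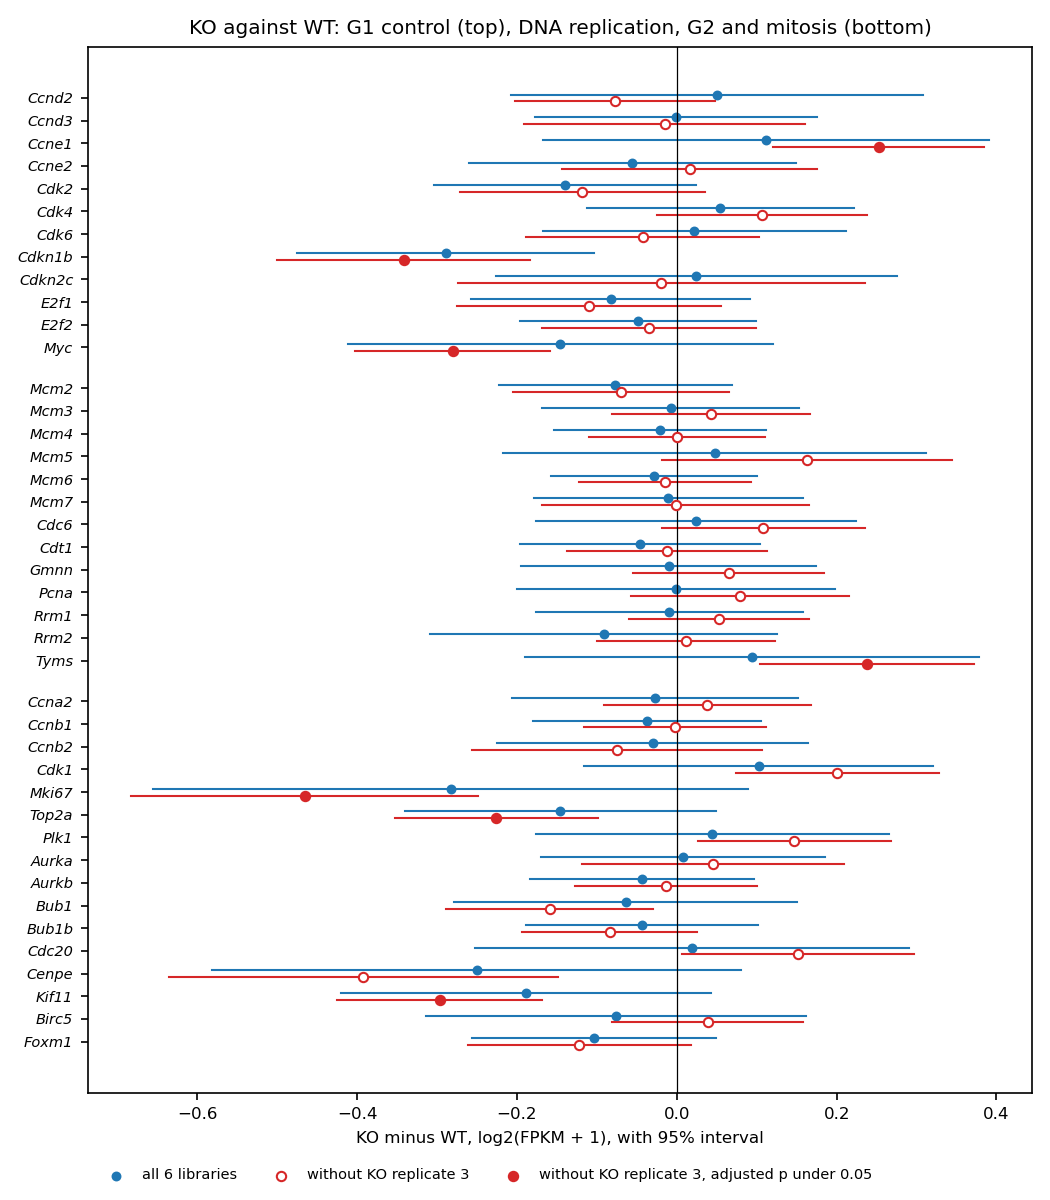
KO minus WT difference of log2(FPKM + 1) with its 95% interval (horizontal axis) for the 41 tested genes, from all 6 libraries (blue) and without KO replicate 3 (red, filled where the limma adjusted p is under 0.05). All but 1 of the blue intervals, that of Cdkn1b, cross 0, and 7 red points are filled.

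Among the G1 genes, the CDK inhibitor Cdkn1b (ENSMUSG00000003031, GRCm38 chromosome 6, 134920401 to 134925513, plus strand) gave 9.20, 10.3 and 11.0 FPKM in the KO libraries (here and below in the order of replicates 1 to 3) against 12.6, 12.7 and 12.6 FPKM in WT. Every KO library lay below every WT library, and the WT values were close together. The log2 difference was -0.29 (95% interval -0.48 to -0.10), with an unadjusted limma p of 0.0074 and an adjusted p of 0.738. Cdk2, the catalytic partner of cyclin E that p27 inhibits, was at 12.7, 12.8 and 12.2 FPKM in KO and 14.6, 13.1 and 14.1 FPKM in WT. The lowest WT value was only slightly above the highest KO value, and the difference of -0.14 (-0.30 to 0.02) did not pass (limma adjusted p = 0.843).

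Myc, the transcription factor that drives growth of activated T cells (chromosome 15, 61985391 to 61990374), gave 80.3, 87.0 and 111 FPKM in KO against 102, 101 and 102 FPKM in WT. KO replicates 1 and 2 lay below the narrow WT range and KO replicate 3 above it. Ccne1, an E cyclin of the G1 to S transition (chromosome 7, 38097984 to 38107534), had the reverse order, at 36.1, 37.5 and 27.2 FPKM in KO and 29.5, 30.7 and 32.0 FPKM in WT. Its differences from WT were positive in KO replicates 1 and 2 and negative in KO replicate 3. The other E cyclin, Ccne2, was at 23.2, 22.7 and 19.6 FPKM in KO and 22.3, 21.3 and 24.4 FPKM in WT, so that only KO replicate 3 was outside the WT range.

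Cdk4, the cyclin D kinase, had a higher level than the other G1 kinases, at 93.8, 100 and 87.0 FPKM in KO and 87.7, 88.5 and 94.0 FPKM in WT. The groups overlapped, with a log2 difference of 0.05 (-0.11 to 0.22). Ccnd2 was at 55.1, 50.7 and 69.3 FPKM in KO and 56.1, 55.9 and 55.5 FPKM in WT, again with KO replicate 3 on the other side of WT from KO replicates 1 and 2. For Ccnd3, Cdk6, Cdkn2c and the activating E2F factors E2f1 and E2f2, log2 differences lay between -0.08 (E2f1) and 0.02 (Cdkn2c), none passing the test.

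**Figure D2:**
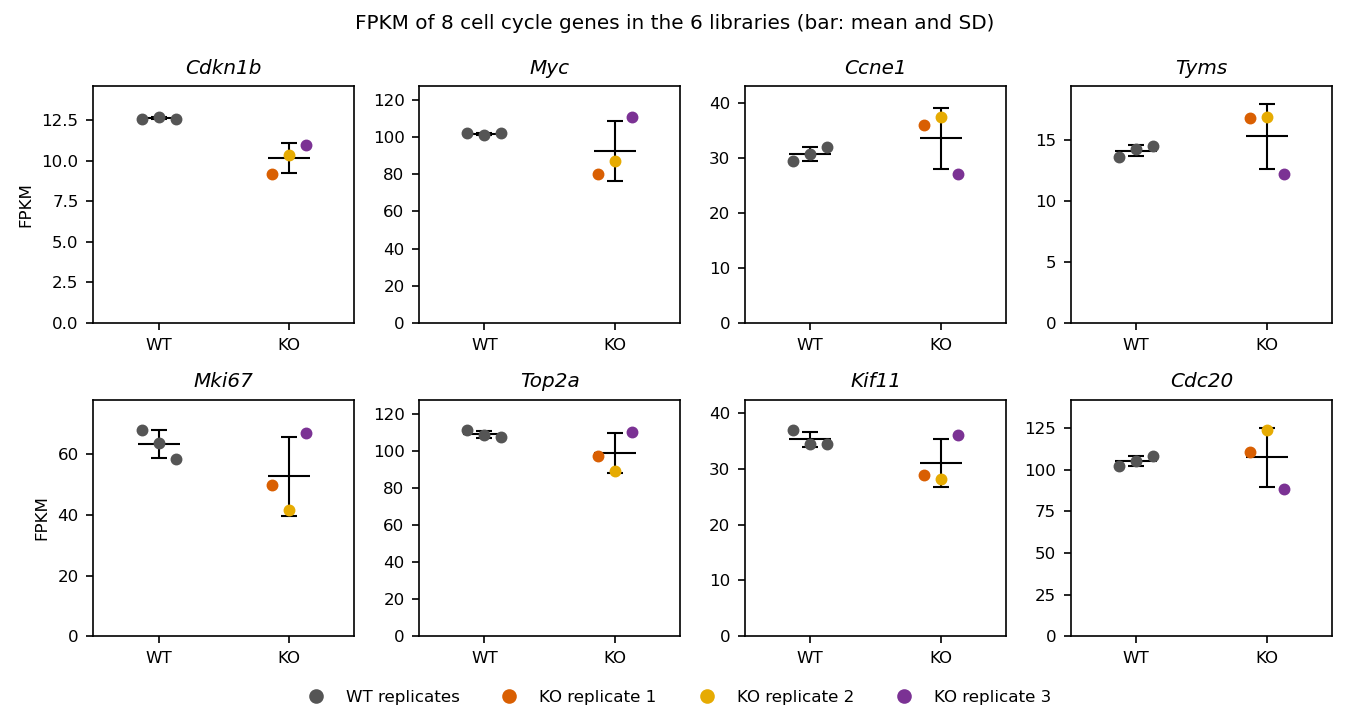
FPKM (vertical axes, from 0) of Cdkn1b, Myc, Ccne1, Tyms, Mki67, Top2a, Kif11 and Cdc20 in the 3 WT and 3 KO libraries, with the mean and SD of each group. For Cdkn1b all KO points lie below WT, while KO replicate 3 lies within the WT range for Mki67, Top2a and Kif11 and beyond it, opposite to KO replicates 1 and 2, for the other 4 genes.

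For the replication genes the KO libraries differed from each other, and 0 of the 13 genes had all KO libraries on 1 side of all WT libraries. KO replicate 3 lay below all WT libraries for 12 of the 13 genes, where 31.2% of all tested genes did, and above them for none, where 33.2% did. The exception was Mcm7, a helicase subunit, at 94.1 FPKM in KO replicate 3 and 91.2, 94.1 and 103 FPKM in WT. KO replicate 2 lay above all WT libraries for 9 of the 13 genes (31.8% of all genes) and below for none (42.4%). KO replicate 1 lay above for 3 (27.0% of all genes) and below for 5 (44.4%). Averaged over the 13 genes, the difference from the WT mean was 0.01, 0.09 and -0.13 on the log2 scale in KO replicates 1 to 3, and between -0.03 and 0.03 in the WT libraries.

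Tyms, thymidylate synthase (chromosome 5, 30058202 to 30073617), had the largest KO minus WT difference of the group, 0.09 (-0.19 to 0.38, limma adjusted p = 0.896). It was at 16.8, 16.9 and 12.2 FPKM in KO and 13.6, 14.3 and 14.5 FPKM in WT, so that the KO libraries lay on both sides of the WT range. Pcna was at 265, 283 and 231 FPKM in KO and 251, 254 and 272 FPKM in WT. Its difference was -0.0010 (-0.20 to 0.20), with KO replicate 2 above and KO replicate 3 below WT. The GENCODE annotation lists pseudogenes of Tyms, Pcna, Ccnb1, Ccnb2 and Ccnd3, and how reads shared with them were divided is not stated in the labels or file headers.

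The MCM helicase subunits Mcm2 to Mcm7 had log2 differences from -0.08 (Mcm2) to 0.05 (Mcm5). Mcm3 was at 164, 174 and 152 FPKM in KO and 159, 168 and 165 FPKM in WT. Mcm5 varied more, at 118, 138 and 100 FPKM in KO and 112, 109 and 121 FPKM in WT. Rrm2, the cell cycle controlled subunit of ribonucleotide reductase, was at 160, 168 and 132 FPKM in KO and 161, 163 and 164 FPKM in WT. KO replicate 3 was the only library far from the others. For the loading factors Cdc6 and Cdt1, the CDT1 inhibitor Gmnn and the large reductase subunit Rrm1, log2 differences lay between -0.05 (Cdt1) and 0.02 (Cdc6).

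**Figure D3:**
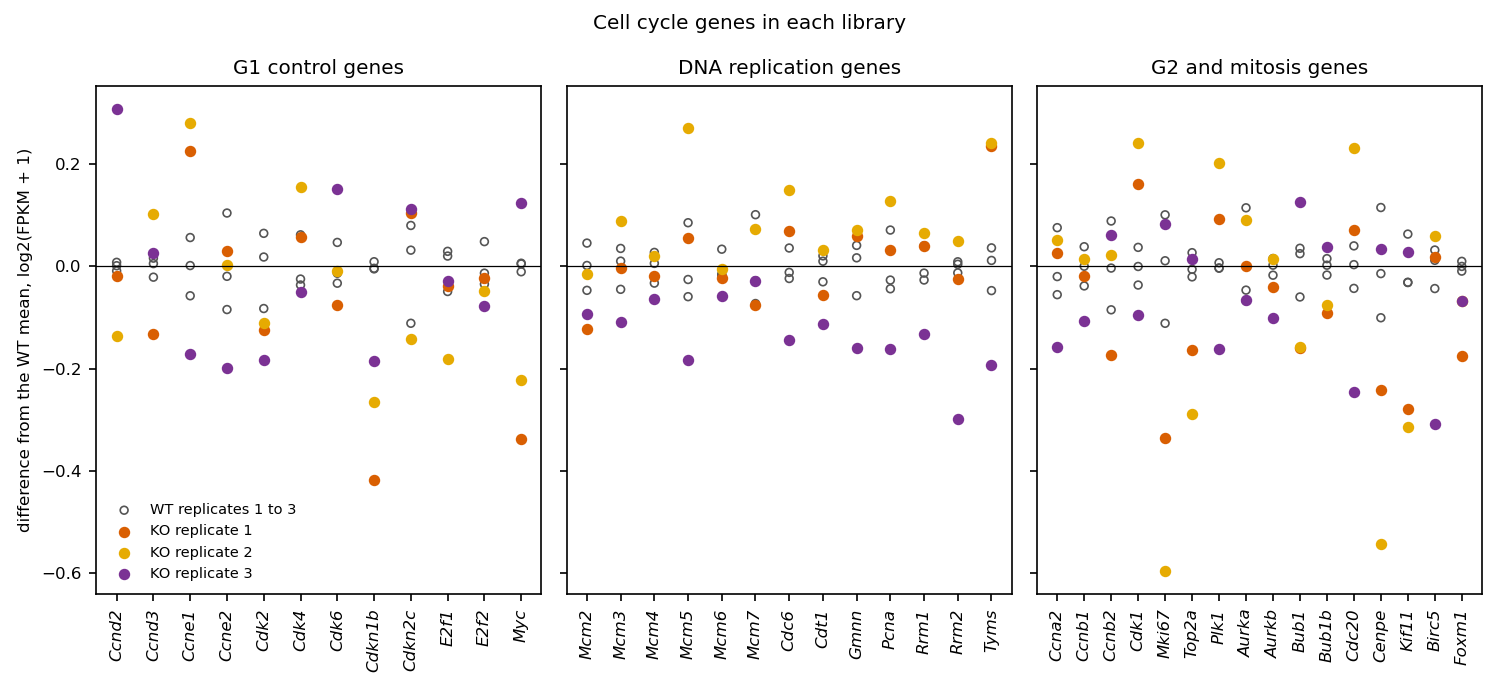
Difference of each library from the WT mean in log2(FPKM + 1) (vertical axis) for each tested gene, in the 3 groups. KO replicate 3 (purple) lies below the WT libraries (open circles) for 12 of 13 replication genes, and the lowest points are Mki67 and Cenpe in KO replicate 2.

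Genes of G2 and mitosis had a median coefficient of variation of 11.4% between KO libraries, near the 11.8% of all genes tested. It was 7.45% for replication and 8.88% for G1 genes. Mki67, the coat protein of mitotic chromosomes and a common proliferation marker (chromosome 7, 135689784 to 135716361), gave 49.7, 41.4 and 66.8 FPKM in KO and 67.6, 63.5 and 58.3 FPKM in WT. KO replicates 1 and 2 were low and KO replicate 3 was within the WT range, giving a difference of -0.28 (-0.66 to 0.09, limma adjusted p = 0.843). Cenpe, a kinetochore kinesin, was at 15.6, 12.4 and 19.0 FPKM in KO and 20.2, 18.4 and 17.2 FPKM in WT, the same order.

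Top2a, the topoisomerase that untangles sister chromatids (chromosome 11, 98992943 to 99024189), gave 97.2, 89.1 and 110 FPKM in KO and 111, 109 and 107 FPKM in WT. Kif11, the kinesin that separates spindle poles (chromosome 19, 37376403 to 37421859), gave 28.8, 28.1 and 35.9 FPKM in KO and 36.8, 34.4 and 34.4 FPKM in WT. For both, KO replicates 1 and 2 lay below WT and KO replicate 3 within it, and with all libraries neither passed (limma adjusted p = 0.843 for each). Foxm1, the forkhead activator of mitotic genes, was lower in each KO library, at 13.9, 15.1 and 15.0 against 15.9, 15.7 and 15.8 FPKM, a difference of -0.10 (-0.26 to 0.05).

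Cdc20, activator of the anaphase-promoting complex, ran the other way, at 111, 124 and 88.5 FPKM in KO and 102, 105 and 108 FPKM in WT. Plk1, the Polo kinase, was at 73.6, 79.5 and 61.6 FPKM in KO and 68.8, 69.3 and 68.8 FPKM in WT. Cdk1, the mitotic kinase, was at 35.3, 37.4 and 29.4 FPKM in KO and 31.5, 30.7 and 32.4 FPKM in WT. For these 3 genes KO replicates 1 and 2 lay above every WT library and KO replicate 3 below every one. The checkpoint genes Bub1 and Bub1b had the opposite pattern, with KO replicates 1 and 2 below WT and KO replicate 3 above it. The cyclins Ccna2, Ccnb1 and Ccnb2, the Aurora kinases Aurka and Aurkb and the survivin gene Birc5 had log2 differences from -0.08 (Birc5) to 0.01 (Aurka).

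Summed over the 16 mitotic genes, FPKM was 820 to 846 in KO and 848 to 873 in WT, or 0.263 to 0.268% and 0.279 to 0.285% of each library's total. The highest KO sum was 845.5 FPKM and the lowest WT sum 847.8 FPKM, and the genes that were low differed between KO libraries, as given above. The G1 genes summed to 374 to 406 FPKM in KO against 391 to 402 FPKM in WT. The replication genes summed to 1160 to 1360 FPKM in KO against 1251 to 1309 FPKM in WT. KO libraries were more spread out than WT libraries: the SD was larger in KO for 36 of the 41 genes (87.8%), against 78.0% of all genes tested, and the median coefficient of variation was 8.91% in KO and 3.16% in WT (11.8% and 5.61% over all genes).

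Without KO replicate 3, leaving 2 KO and 3 WT libraries, 7 of the 41 cell cycle genes passed, where 1088 of 10726 genes did in the whole table (10.1%). KO replicate 3 was singled out after its values had been seen. Ccne1 rose by 0.25 (0.12 to 0.38, limma adjusted p = 0.0368) and Tyms by 0.24 (0.10 to 0.37, adjusted p = 0.0439). Lower were Cdkn1b, at -0.34 (-0.50 to -0.18, limma adjusted p = 0.0286), Myc at -0.28 (-0.40 to -0.16, adjusted p = 0.0247), Mki67 at -0.47 (-0.68 to -0.25, adjusted p = 0.0288), Top2a at -0.23 (-0.35 to -0.10, adjusted p = 0.0439) and Kif11 at -0.30 (-0.43 to -0.17, adjusted p = 0.0243). By role these were an E cyclin and a nucleotide enzyme among the risen genes, and a CDK inhibitor, a transcription factor of cell growth and 3 chromosome or spindle proteins among the fallen ones. The 2 risen genes compare with a background of 4.0% and the 5 fallen genes with 6.14%. At an unadjusted p under 0.05 there were 5 higher and 7 lower genes, where 12.3% of all genes were higher and 20.2% lower at that level. Leaving out any other library instead called 0 of the 41 genes.

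Where KO replicates 1 and 2 lay on one side of WT, KO replicate 3 often lay on the other. KO replicates 1 and 2 were above all WT libraries for 7 of the 41 genes, Ccne1, Cdc6, Gmnn, Tyms, Cdk1, Plk1 and Cdc20 (18.9% of all genes), and KO replicate 3 was below all WT libraries for each of them. In the whole table this was so for 996 of 2056 such genes. They were below all WT libraries for 11 genes (31.2% of all genes), of which KO replicate 3 was above WT for Ccnd2, Myc, Bub1 and Bub1b, within it for Mki67, Top2a, Cenpe and Kif11, and below it for Cdk2, Cdkn1b and Foxm1. In the whole table KO replicate 3 was above WT for 1622 of 3387 such genes. Of the 7 genes that passed without KO replicate 3, Cdkn1b was therefore the only one for which all 3 KO libraries lay on the same side of WT.

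Transcript length moved with these differences among the mitotic genes. Mki67 (main transcript of 10061 bases), Cenpe (7910), Top2a (5221) and Kif11 (4819) are among the longest of the 42 genes, while Cdc20 (1793) and Plk1 (2199) are short, as is Ccne1 (2000) of G1 control. Across the 16 mitotic genes, Spearman's rho of length with the difference from the WT mean was -0.59, -0.72 and 0.53 in KO replicates 1 to 3, and 0.84, 0.19 and -0.73 in WT replicates 1 to 3. Over 10869 genes of the whole table rho was -0.33, -0.46 and 0.23 in KO and 0.25, 0.01 and -0.24 in WT. These correlations are across genes of 1 library, are not independent, and the WT values are deviations from a mean that includes them. Replication genes, none of them over 4614 bases, had rho of 0.24, 0.14 and 0.13 in KO. For the 12 tested G1 genes, the longest of 11525 bases, rho was 0.10, -0.09 and 0.22 in KO. GC content also moved with the differences of the 16 mitotic genes. Its rho was 0.48, 0.62 and -0.58 in KO replicates 1 to 3 and -0.58, 0.39 and 0.21 in WT replicates 1 to 3. Length and GC content were not examined apart from each other.

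**Figure D4:**
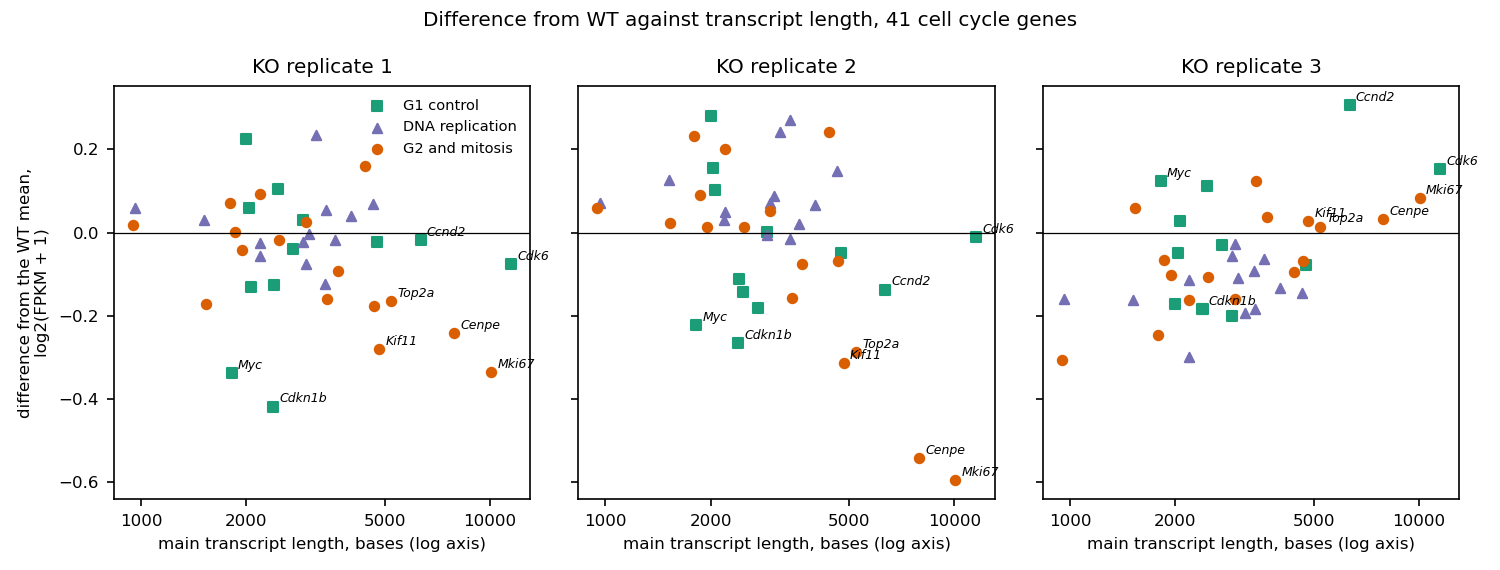
Difference from the WT mean in log2(FPKM + 1) (vertical axis) against main transcript length in bases (horizontal log axis) for the 41 tested genes in KO replicates 1 to 3. Of the 9 genes over 4500 bases, 8 lie below 0 in each of KO replicates 1 and 2, and 3 do in KO replicate 3. Myc and Cdkn1b are low in KO replicates 1 and 2 at moderate length. Cdkn1b is placed at the shorter of its tested protein-coding transcripts. Its longer one, of 4552 bases, had a log2 difference of -0.47.

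When the trends over length and GC content were removed from each library, an alternative combined with leaving out KO replicate 3 after the data had been seen, 6 of the 41 genes passed (7.66% of all genes). Cdkn1b (-0.34, limma adjusted p = 0.0361), Myc (-0.35, adjusted p = 0.0094), Mki67 (-0.26, adjusted p = 0.0316), Ccne1 (0.19, adjusted p = 0.0407) and Tyms (0.27, adjusted p = 0.0289) passed again, and Cdk1 passed as well (0.28, limma adjusted p = 0.0363). Top2a at -0.10 (limma adjusted p = 0.116) and Kif11 at -0.17 (adjusted p = 0.0667) no longer passed. The change in Mki67 was thus -0.26 in place of -0.47 on the log2 scale, with the same sign. For Cdkn1b the removal used the length of the shorter of its tested protein-coding transcripts, while the longer one has 4552 bases. In the replication group the mean differences in KO replicates 1 to 3 were 0.02, 0.09 and -0.14 after removal, close to the values before it. With all 6 libraries, removal left 0 of the 41 genes called, where 0.12% of all genes were, and 3 lower at an unadjusted p under 0.05 (4.2% of all genes).

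Of 148 further tested genes of G1 control, replication, mitosis and DNA damage response, 0 passed with all libraries by limma, and 9 reached an unadjusted p under 0.05, all lower in KO (3.07% of all genes). Median log2 differences were -0.06 for 22 other G1 genes, -0.04 for 50 other replication genes, -0.09 for 55 other mitotic genes and -0.10 for 21 damage checkpoint and repair genes, against -0.03 for all genes. Of the 55 other mitotic genes 44 were below 0, where the larger part of all genes tested also was, as counted above. All KO libraries lay below all WT libraries for 22 of the 148 genes and above them for 1, Mdm2 (6.88% and 4.28% of all genes). Among the 50 other replication genes they lay below for 8 and above for 0. KO replicate 3 alone lay below all WT libraries for 37 of the 50 other replication genes, as it did for 12 of the 13 above (31.2% of all genes).

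The genes of smallest p in these lists included Rbl1, which encodes the E2F repressor p107, at 12.0, 11.4 and 14.7 FPKM in KO and 17.0, 16.0 and 15.8 FPKM in WT (-0.34, limma adjusted p = 0.806). E2f7, an E2F repressor (-0.30), Wdhd1, a replisome adaptor (-0.20), Topbp1, a scaffold of origin firing (-0.22), and Cdc7, the kinase that activates the MCM helicase (-0.19), were also lower in each KO library, each with a limma adjusted p of 0.838 or above. So were Gins3, a helicase subunit (-0.18), the condensin subunit Smc4 (-0.20), the cohesin protector Sgo1 (-0.19), the kinesin Kif20b (-0.26), the kinase Melk (-0.15) and the E2F partner Tfdp1 (-0.10). Among repair genes the smallest p values were those of Brca1 (-0.26), Atrip (-0.20), Fanci (-0.18) and the checkpoint kinase Chek1 (-0.11), each with a limma adjusted p of 0.843. None of the genes named in this group passed with all libraries.

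Cdkn1a, which encodes the CDK inhibitor p21, was at 27.3, 30.1 and 15.2 FPKM in KO and 16.9, 17.7 and 18.1 FPKM in WT. KO replicates 1 and 2 were far above WT and KO replicate 3 was below it, so that the difference with all libraries was 0.39 (-0.13 to 0.90, limma adjusted p = 0.843). Without KO replicate 3 it rose by 0.68 (0.53 to 0.83, limma adjusted p = 0.0054). In KO replicates 1 and 2 Cdkn1b, the gene of p27, lay on the other side of WT from Cdkn1a. In KO replicate 3 both genes lay below all WT libraries. With KO replicate 3 left out, 4 of the 148 genes rose, Cdkn1a, Dut, Ung and Cks2, and 10 fell. The backgrounds were 4.0% and 6.14%. Among the fallen genes were Rbl1 at -0.44 (limma adjusted p = 0.0129), Smc4 at -0.29 (adjusted p = 0.0253) and Brca1 at -0.38 (adjusted p = 0.0228). With length and GC trends also removed, 2 rose, Cdkn1a and Cks2, and 4 fell, Rbl1, Smc4, Brca1 and Mdc1 (2.83% and 4.83% of all genes).

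At the level of transcripts, 93 of the 209 listed transcripts of the 42 genes were tested. By limma 0 passed (smallest adjusted p 0.788), where 8 of 19184 did in the whole table (0.0417%), and 1 higher and 4 lower reached an unadjusted p under 0.05, where 2.42% and 3.15% of all transcripts did. KO and WT did not overlap for 1 higher transcript (4.71% of all) and 7 lower ones (6.36%). Without KO replicate 3, 0 of 89 passed (0.0273% of all transcripts did), with 7 higher and 9 lower at an unadjusted p under 0.05 (6.17% and 8.88%).

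Cdkn1b has 2 protein-coding transcripts among the tested ones over the same span of chromosome 6. The one of 4552 bases (ENSMUST00000067327) was at 5.18, 4.88 and 6.63 FPKM in KO and 7.79, 7.83 and 8.43 FPKM in WT, a log2 difference of -0.47 (limma adjusted p = 0.788). The one of 2393 bases (ENSMUST00000003115) was at 7.64, 10.4 and 8.09 FPKM in KO and 9.06, 9.12 and 7.90 FPKM in WT, with a difference of -0.0067 (-0.37 to 0.35). KO and WT did not overlap for the longer transcript and overlapped for the shorter one. Neither difference passed after adjustment, and the difference between the 2 was not tested. For Cdk2, the transcript of 2406 bases (ENSMUST00000026416) was at 21.3, 21.4 and 24.0 FPKM in KO and 27.0, 26.0 and 27.8 FPKM in WT (-0.27, limma adjusted p = 0.820).

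An E2f1 transcript of 2755 bases (ENSMUST00000000894) was at 2.38, 0.914 and 0.447 FPKM in KO and 4.28, 2.24 and 5.99 FPKM in WT, with KO replicate 1 within the WT range (-1.23, limma adjusted p = 0.849). Of Birc5, the transcript of 3334 bases (ENSMUST00000093906) was at 5.40, 5.04 and 6.45 FPKM in KO and 7.87, 7.05 and 7.30 FPKM in WT (-0.35). The 1 higher transcript was a retained-intron form of Ccnb1 of 1075 bases (ENSMUST00000134080), at 3.61, 2.88 and 2.40 FPKM in KO and 1.95, 1.97 and 1.39 FPKM in WT (0.51, limma adjusted p = 0.873). A retained-intron form of Cdk2 (ENSMUST00000219099) was lower in each KO library, with a log2 difference of -0.56. Each of these forms had an adjusted p of 0.788 or above.

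The authors' deposited table marked 0 of the 42 genes and 71 of all genes (0.294%) as significant. There Cdkn1b was the only 1 of the 42 with a p-value under 0.05 (p = 0.0030, q = 0.307), and the next lowest q in the authors' deposited table was 0.9998. The authors' deposited table of Gene Ontology terms listed 1 of 60 significant annotated genes under cell cycle, a term of 557 among 15267 genes (p = 0.893), and 1 under cell division (p = 0.750).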

How the data were processed

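RNA of 6 mouse Th17 libraries was compared, grouped by the sample titles. The authors deposited gene and transcript tables in FPKM, with a ratio (fold), a log2 fold, a p-value and a q-value per feature, and an enrichment table holding a p-value and other numbers per Gene Ontology term, per the file headers. Named in the submitters' processing notes, without versions or roles, are HISAT2, StringTie, cutadapt, FastQC, edgeR and DESeq2, as well as the build mm9. However, 73240 of 73430 transcript IDs had the same position in GENCODE M21, so coordinates are GRCm38. Whole reads were not recovered (at most 10.0% of low values fell on whole steps, within 0.02 steps), so no count test was used.

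Features at 1 FPKM or more in at least 3 libraries were tested on log2(FPKM + 1), a scale that understates changes of low genes, with limma 3.58.1 in R 4.3.3 (mean trend, Benjamini-Hochberg over all features, adjusted p under 0.05). The fit was tested on simulated data. Genes named with values are those that did not overlap, that passed in either fit, of highest mean or of largest difference per group, and the smallest p of each other list and of transcripts. Values of Ccne2, Ccnd2, Mcm5, Mcm7, Rrm2, Cenpe, Plk1, Cdk1, Lyz2, Cd14 and Gzmc were added outside this rule after they had been seen. FPKM values of Cdkn2c, Ccnd1, Ccnd3 and the marker genes Trac, Cd4, Il17f, Ctss and Gzmb also lie outside this rule. Sirt2 is given as the targeted gene. The genes and lists were chosen with earlier results of these data known. Length and GC content came from reference transcripts of 10869 of the 10873 tested genes.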

Additional observations from a re-analysis of the deposited data

How the results depend on the processing

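With all 6 libraries, 0 of the 41 cell cycle genes were called under median scaling, a 5 FPKM filter or none, a pseudocount of 0.1, no mean trend, the replicate block, and removal of length and GC trends with or without the block. Stricter thresholds on the main fit (adjusted p under 0.01, or a log2 change of at least 1) also gave 0, which was fixed by the 0 genes called at the main threshold. Leaving out 1 library called 0 to 7, the 7 without KO replicate 3, or 6 if the trends over length and GC content were taken out too. In the whole gene table the count of 12 became 5 with the 5 FPKM filter, 7 at an adjusted p under 0.01, 1 with the replicate block and trends removed, 0 to 1088 on leaving out 1 library (1088 without KO replicate 3, 0 without KO replicate 1) and 821 when KO replicate 3 and the trends were both removed. Median scaling called 14, 13 of them higher, against 10 of 12. The replicate block called 13 genes, and same-numbered libraries did not deviate together (correlations of 0.0067, -0.017 and -0.0756), so the numbers were not taken as pairs. For transcripts the count of 8 became 4 with no filter, 25 with no mean trend, 3 with the replicate block and 1 to 6 on leaving out 1 library, and member transcripts stayed at 0 in all 12 alternatives. Differences near 0 changed sign. Pcna, at -0.0010, was at 0.037 under median scaling, from -0.065 to 0.079 on leaving out 1 library, and at 0.039 when KO replicate 3 and the trends were both removed. Mcm3, at -0.0076, was at 0.030 and from -0.056 to 0.043, and at 0.037. Cdc20, at 0.02, was at -0.019 with trends removed, with or without the block, and from -0.087 to 0.15 on leaving out 1 library. The cause of these shifts was not tested. The median log2 difference of all genes was -0.03, and 0.01 under median scaling. Depth is unknown, 3 libraries per group limit the precision, and Ccnd1 lay under the filter.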
